A study of Mus musculus with 8 samples.

Results

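The genes described here encode the NRF2 pathway and the glutathione and thioredoxin systems, which keep cellular thiols reduced and remove peroxides. Members were all rows whose symbol names a glutathione transferase, glutathione peroxidase, peroxiredoxin, superoxide dismutase, thioredoxin or thioredoxin reductase. Txnip, catalase and the enzymes of glutathione synthesis and recycling were also taken. So were the pentose phosphate pathway genes G6pdx, Pgd, Taldo1 and Tkt, and Me1. The NRF2-linked genes Nqo1, Nqo2, Hmox1, Hmox2, Srxn1, Osgin1 and Osgin2 and the regulators Nfe2l1, Nfe2l2, Keap1, Bach1 and Bach2 completed the list. This rule took 65 of the 20972 rows of the table. The cells were MC3T3-E1 subclone 14, a clonal osteoblastic line from mouse calvaria, cultured in α-MEM with serum. They received 10 µM Yoda1, a chemical opener of the force-gated channel PIEZO1, or its solvent DMSO for 24 h, with 4 samples per group in the labels. The labels exclude DMSO replicate 3 and Yoda1 replicate 1 for batch variation, which leaves 3 libraries per group. The sample labels do not say whether the libraries stem from separate cultures, so p-values reflect only the spread between these libraries, which may be technical.

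NRF2, the product of Nfe2l2, is a transcription factor that KEAP1 binds and delivers to a CUL3 ubiquitin ligase for degradation. When reactive cysteines of KEAP1 are modified, NRF2 accumulates, pairs with a small MAF protein and binds antioxidant response elements, and BACH1 competes for the same elements. Its known targets include enzymes that make glutathione, reduce thioredoxin, conjugate electrophiles and regenerate NADPH. Glutathione and thioredoxin in turn supply electrons to peroxidases, and both are recharged with NADPH.

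Values of single genes come from the authors' deposited table, where each gene has 1 mean normalized count over both groups, 1 log2 fold change and 1 standard error, with no values per library. Fold changes are Yoda1 over DMSO, a direction taken from the table's name. A gene is said to rise or fall where the authors' adjusted p, from a DESeq2 Wald test over all 14653 genes given one, is under 0.05. The mean normalized counts summed to 19849773, and depth per library was not analysed here. In bulk RNA, fewer cells of a kind and less RNA per cell cannot be told apart. The osteoblast transcription factor genes Runx2 and Sp7 had means of 2102 and 2405 and the collagen genes Col1a1 and Col1a2 of 171434 and 279469 per the authors' deposited table, whereas the osteoblast markers Alpl (47.3) and Bglap (4.70) were low. Of 9 osteoblast markers, 7 fell and 1, Spp1, rose. Among markers of other cells per the authors' deposited table, the endothelial genes Pecam1 and Cdh5 had means of 3.82 and 0.504, the pan-leukocyte gene Ptprc of 0.157 and the macrophage genes Csf1r and Cd68 of 13.8 and 8.72. Only Lyz2, a lysozyme gene, passed the test among these markers of other cells, with a mean of 97.4 and a log2 fold change of -1.35 (standard error 0.23) per the authors' deposited table.

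To show the kind of sequence through which NRF2 is known to act, stretches at the transcription start of 5 members were taken from RefSeq promoter windows (build GRCm38.p6, each 250 bases before to 50 after a start). Nfe2l2, Gclm, Prdx1 and Txnrd1 are 4 of the 7 members that rose and hold the core of the antioxidant response element, TGACNNNGC. The others, Gstm5, Pgd and Srxn1, are not shown. Me1 is shown because it holds the same letters as Prdx1 but did not pass the test. Each runs 5′ to 3′ on the gene's own strand, with the core in capitals. The stretches end just before the start, except that of Me1, which runs on to the end of a core that spans the start (bases -6 to 2, with the start at 0). The core lies on the strand shown in Nfe2l2 and Me1, and on the opposite strand in Gclm, Prdx1 and Txnrd1, where it reads as its reverse complement.
Nfe2l2, chr2:75704664-75704913, minus strand: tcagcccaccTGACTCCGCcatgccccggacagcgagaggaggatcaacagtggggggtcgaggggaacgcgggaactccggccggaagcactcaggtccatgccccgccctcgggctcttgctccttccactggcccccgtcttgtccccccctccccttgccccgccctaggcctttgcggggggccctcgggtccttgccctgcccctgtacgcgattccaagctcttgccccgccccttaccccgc
Gclm, chr3:122245307-122245556, plus strand: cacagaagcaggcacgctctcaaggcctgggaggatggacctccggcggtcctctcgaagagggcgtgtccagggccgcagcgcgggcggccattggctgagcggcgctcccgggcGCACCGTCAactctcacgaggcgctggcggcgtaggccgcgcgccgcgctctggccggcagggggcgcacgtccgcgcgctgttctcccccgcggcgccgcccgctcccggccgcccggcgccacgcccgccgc
Prdx1, chr4:116685349-116685598, plus strand: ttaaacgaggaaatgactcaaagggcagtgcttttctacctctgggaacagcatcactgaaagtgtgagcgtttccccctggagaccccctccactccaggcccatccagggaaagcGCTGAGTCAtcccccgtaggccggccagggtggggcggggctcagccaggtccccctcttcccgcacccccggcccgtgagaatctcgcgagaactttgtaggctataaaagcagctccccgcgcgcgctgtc
Txnrd1, chr10:82858956-82859205, plus strand: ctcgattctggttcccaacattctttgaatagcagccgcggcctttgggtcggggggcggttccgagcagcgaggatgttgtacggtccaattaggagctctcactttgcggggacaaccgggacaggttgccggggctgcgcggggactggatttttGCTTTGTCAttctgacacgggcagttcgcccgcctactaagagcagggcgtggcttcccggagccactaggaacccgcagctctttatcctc
Me1, chr9:86695912-86696164, minus strand: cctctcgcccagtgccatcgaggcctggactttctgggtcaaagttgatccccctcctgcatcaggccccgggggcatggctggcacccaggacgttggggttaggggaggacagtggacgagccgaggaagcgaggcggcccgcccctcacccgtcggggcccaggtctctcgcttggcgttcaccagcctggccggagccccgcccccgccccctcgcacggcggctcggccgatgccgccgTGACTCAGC

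The core was searched on both strands of every window of the RefSeq table. It stood in at least 1 window of 13 of the 56 members with an entry (23.2%), beside 3781 of all 27025 genes (14.0%), and in 13 of the members' 79 windows (16.5%), beside 12.4% of all 32851 windows. Of the 13 members with the core, 7 rose, 4 did not pass the test and 2 had no adjusted p. Of the 43 members without it in these windows, 15 rose, 9 fell, 15 did not pass and 4 had no adjusted p. Of the 8 members that rose by a log2 fold change above 1, only Txnrd1 was among the 13 with the core. The fuller sequence TGACTCAGC, which overlaps the AP-1 motif TGANTCA, was found in Prdx1 and Me1 and in 0.503% of all genes. A match is a run of letters and does not show binding, and the windows leave out elements farther away.

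**Figure D1:**
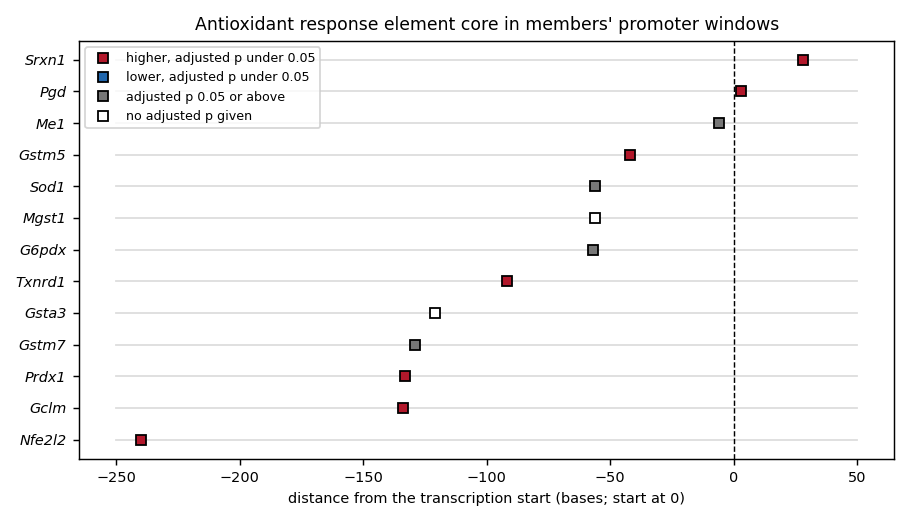
Position of the first base of each TGACNNNGC core in the promoter windows of the 13 members that hold one; the horizontal axis is the distance from the transcription start in bases, with the start at 0, and each row is a gene. Red squares are genes that rose, grey squares genes that did not pass the test and white squares genes with no adjusted p; sites run from -240 in Nfe2l2 to 28 in Srxn1.

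Members were more often higher than lower with Yoda1, although the list was chosen with earlier results of these data known. All 4 genes of glutathione synthesis and recycling rose, as did 5 of 6 thioredoxin system genes and 5 of 6 peroxiredoxin genes. Of the 65 members, 58 had an adjusted p, and of these 28 rose (48.3%) and 10 fell (17.2%), while 20 did not pass the test. Over all tested genes, 22.4% rose and 22.1% fell (44.5% in either direction). The median log2 fold change was 0.27 over the tested members and -0.01 over all tested genes. Members were also well-expressed, so that among those with a mean of 100 or more 28 of 49 rose and 9 fell, beside 29.0% and 27.6% of all tested genes at that level. The authors' class, set at the same adjusted p and log2 fold changes beyond 0.5 either way, called 16 members higher and 6 lower, beside 13.8% and 13.3% of all tested genes. When the normal distribution was replaced by a t distribution with 4 degrees of freedom, 19 members were higher and 6 lower, beside 10.4% and 10.0% of all genes.

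**Figure D2:**
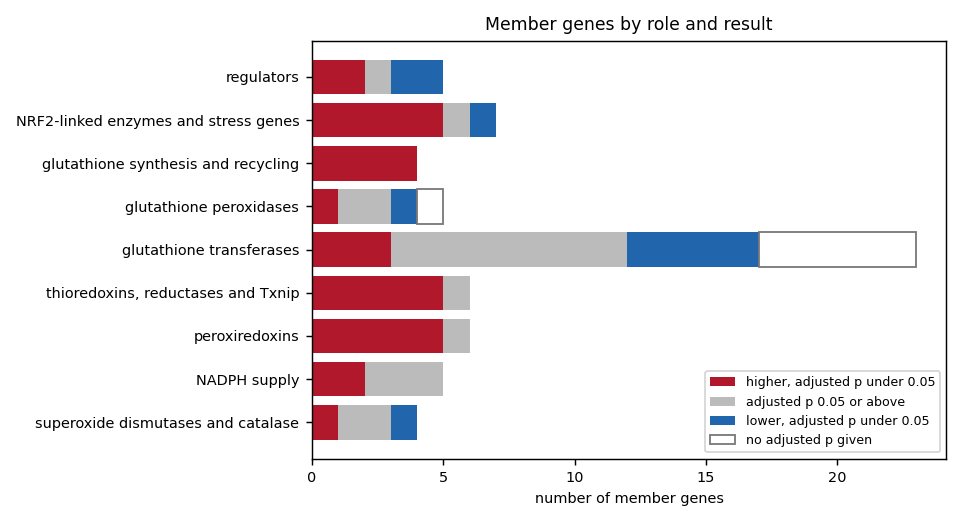
Number of member genes by role that rose, did not pass the test, fell or had no adjusted p; the horizontal axis counts genes. All 4 genes of glutathione synthesis and recycling rose, 5 of 6 peroxiredoxins rose, and the glutathione transferases split into 3 that rose and 5 that fell.

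Among the regulators, Nfe2l2 rose and its repressor genes moved less. Nfe2l2 had an implied group mean of about 1903 normalized counts with DMSO and 3107 with Yoda1. Implied means here and below split the deposited mean by the deposited fold, taking equally many libraries per group. Per the authors' deposited table, Nfe2l2 was 1.63-fold higher (95% interval 1.45 to 1.84, DESeq2 adjusted p = 8.11e-15). Keap1, which encodes the sensor that holds NRF2 down, rose as well, by a log2 fold change of 0.33 (standard error 0.09) per the authors' deposited table. Bach1, whose product competes with NRF2 at its elements, fell slightly (-0.28, 0.11 on the log2 scale), and so did Nfe2l1, which encodes the related factor NRF1 of proteasome and lipid control (-0.30, 0.09), per the authors' deposited table. The calls of Keap1, Bach1 and Nfe2l1 were lost with the t distribution, and those of Bach1 and Nfe2l1 also once the 2 groups were scaled to equal summed counts. Bach2, better known from lymphocytes, stood at -0.18 (standard error 0.25, DESeq2 adjusted p = 0.614) at a mean of 76.3 per the authors' deposited table.

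The classical NRF2-linked genes did not move by one amount. Nqo1, a quinone reductase often used as a readout of NRF2, went from an implied 2025 to 6198 normalized counts. Its ratio per the authors' deposited table was 3.06-fold (95% interval 2.77 to 3.39, DESeq2 adjusted p = 9.35e-103), the largest rise of any member that passed the test. Srxn1, which encodes sulfiredoxin, the enzyme that repairs overoxidised peroxiredoxins, was 1.46-fold higher (1.29 to 1.66) per the authors' deposited table. Hmox1, the inducible haem oxygenase and a target that both NRF2 and BACH1 act on, was only 1.16-fold higher (1.05 to 1.28, DESeq2 adjusted p = 0.00898) per the authors' deposited table, a call lost with the t distribution. The constitutive haem oxygenase gene Hmox2 stood at 0.00 (standard error 0.10) on the log2 scale per the authors' deposited table. Nqo2, a paralog of Nqo1, showed a log2 fold change of 0.33 (0.14, DESeq2 adjusted p = 0.0437) there, which was lost with no filter on low values and with the t distribution. The oxidative stress-induced growth inhibitor genes parted: Osgin2 was 1.93-fold higher (1.48 to 2.52) while Osgin1 was 1.55-fold lower (1.25 to 1.92) per the authors' deposited table. The fall of Osgin1 was lost with the t distribution.

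**Figure D3:**
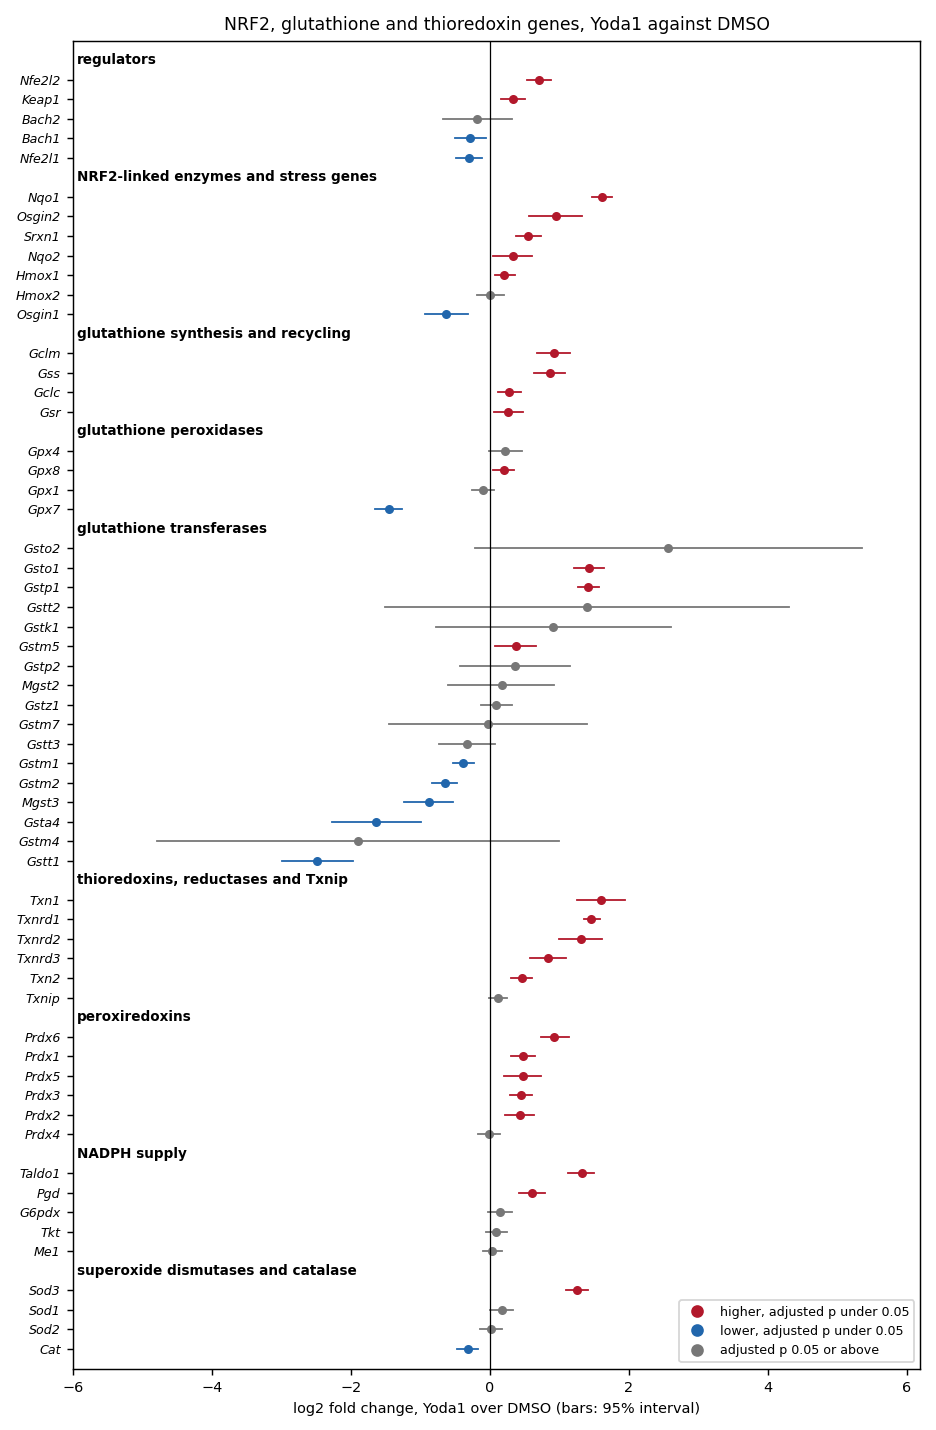
Log2 fold change, Yoda1 over DMSO, of the 58 members with an adjusted p, by role; points are the authors' deposited values and bars their 95% intervals. Red marks genes that rose, blue genes that fell and grey genes that did not pass; the thioredoxin group lies to the right of 0 and the glutathione transferases spread from -2.49 to 2.57.

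All 4 genes that make or recycle glutathione rose, beside 22.4% of all tested genes, with a median log2 fold change of 0.57. Glutamate-cysteine ligase, the rate-limiting enzyme, has a catalytic subunit (Gclc) and a modifier subunit (Gclm) that raises its efficiency. Gclm went from an implied 1302 to 2466 normalized counts and was 1.89-fold higher (95% interval 1.60 to 2.24) per the authors' deposited table. Gclc was 1.21-fold higher there (1.08 to 1.36), so the intervals of the subunits per the authors' deposited table did not overlap, although their difference itself was not tested. Gss, which encodes glutathione synthetase, was 1.81-fold higher (1.56 to 2.11) per the authors' deposited table. Gsr, the reductase that regenerates glutathione from its disulfide, was 1.20-fold higher (1.04 to 1.38) per the authors' deposited table. The rises of Gclc and Gsr were lost with the t distribution.

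The thioredoxin system held several of the largest rises. Of its 6 members 5 rose (83.3%) and 0 fell, beside 22.4% and 22.1% of all tested genes. The median log2 fold change of the 6 was 1.07. Txnrd1, the cytosolic thioredoxin reductase and a selenoenzyme, went from an implied 3674 to 10139 normalized counts. It was 2.76-fold higher (95% interval 2.54 to 3.00, DESeq2 adjusted p = 2.83e-126) per the authors' deposited table. The mitochondrial reductase gene Txnrd2 was 2.47-fold higher (1.99 to 3.07) and Txnrd3, which encodes the thioredoxin glutathione reductase prominent in testis, 1.78-fold higher (1.50 to 2.12) per the authors' deposited table. Per kilobase of transcript, the mean of Txnrd1 was 2015 normalized counts, against 130 for Txnrd2 and 134 for Txnrd3.

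Both thioredoxin genes rose. Txn1, the cytosolic thioredoxin, was 3.03-fold higher (95% interval 2.40 to 3.82), from an implied 1940 to 5876 normalized counts, per the authors' deposited table. Its standard error of 0.17 per the authors' deposited table was above that of 98.5% of the 1764 genes within 2 times its mean, whose median was 0.0847. Mitochondrial Txn2 was 1.38-fold higher (1.24 to 1.53) per the authors' deposited table. Txnip, which encodes an arrestin-like protein that binds and inhibits thioredoxin, did not pass the test (log2 fold change 0.12, standard error 0.06, DESeq2 adjusted p = 0.137) at a mean of 4974 per the authors' deposited table. With the groups scaled to equal summed counts Txnip passed the test at 0.22.

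**Figure D4:**
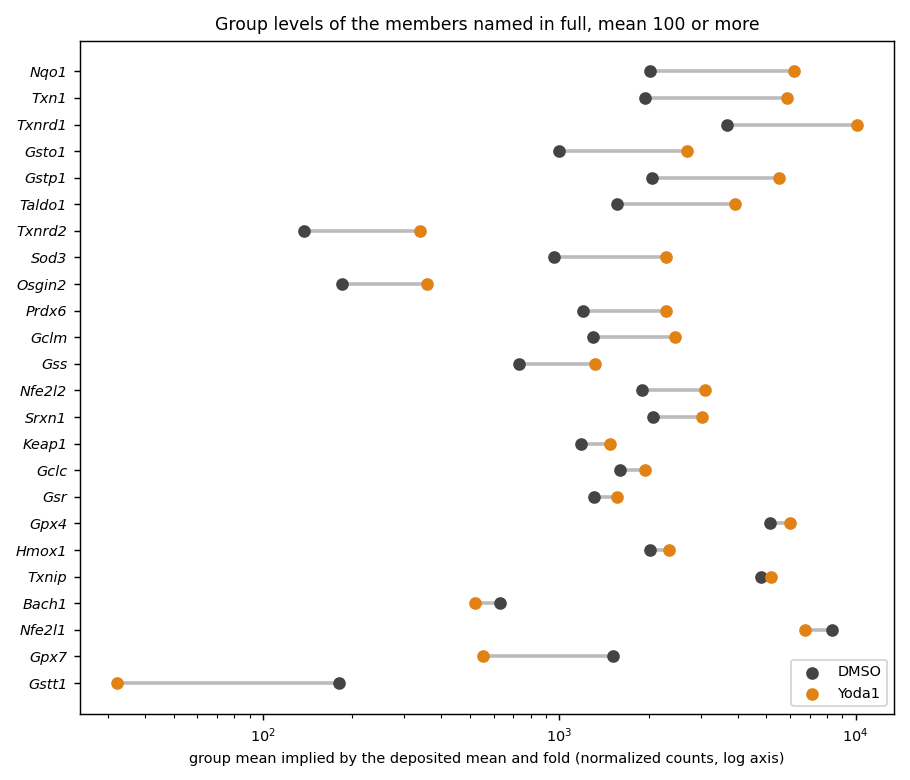
Implied group means of the members named in full with a mean of 100 or more, on a log axis of normalized counts; dark points are DMSO, orange points Yoda1, joined per gene and ordered by fold change. Nqo1, Txn1 and Txnrd1 lie at the top with the widest rises, while Gpx7 and Gstt1 at the bottom run the other way.

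Peroxiredoxins, which reduce hydrogen peroxide with electrons from thioredoxin, rose in 5 of 6 cases, by log2 fold changes of 0.43 to 0.93. This share is 83.3%, beside 22.4% of all tested genes, and the median log2 fold change was 0.46. Prdx6, a 1-cysteine enzyme that uses glutathione and also acts on phospholipids, was 1.91-fold higher (95% interval 1.65 to 2.20), from an implied 1201 to 2291 normalized counts, per the authors' deposited table. The typical peroxiredoxin genes Prdx1, Prdx2 and Prdx3 had log2 fold changes of 0.48, 0.43 and 0.45 (standard errors 0.09, 0.10 and 0.08) per the authors' deposited table. Prdx5, found in mitochondria and peroxisomes, stood at 0.47 (0.14) there, and the calls of Prdx2 and Prdx5 were lost with the t distribution. Prdx4, the peroxiredoxin of the endoplasmic reticulum, stood at -0.01 (0.08, DESeq2 adjusted p = 0.962) per the authors' deposited table, a 95% interval of -0.17 to 0.15.

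Of 4 tested glutathione peroxidases, Gpx7 fell, Gpx8 rose and 2 did not pass the test. Gpx4, the selenoenzyme that reduces lipid hydroperoxides and protects against ferroptosis, had an implied 5128 normalized counts with DMSO and 5990 with Yoda1. It did not pass the test per the authors' deposited table (1.17-fold, 95% interval 0.993 to 1.37, DESeq2 adjusted p = 0.119), but passed with equal summed counts. The cytosolic selenoenzyme gene Gpx1 did not pass either (log2 fold change -0.10, standard error 0.08) per the authors' deposited table. The endoplasmic reticulum peroxidases Gpx7 and Gpx8, which carry cysteine in place of selenocysteine, differed. Gpx7 fell 2.74-fold (2.39 to 3.14, DESeq2 adjusted p = 2.7e-45), from an implied 1515 to 553 normalized counts, while Gpx8 was 1.15-fold higher (1.04 to 1.28) per the authors' deposited table. The rise of Gpx8 was lost with the t distribution. Gpx3, a secreted peroxidase, had a mean of 1.24 and no adjusted p per the authors' deposited table.

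Glutathione transferases conjugate glutathione to electrophiles. Of 23 members 17 were tested, of which 3 rose (Gstp1, Gsto1 and Gstm5) and 5 fell (Gstt1, Gsta4, Mgst3, Gstm2 and Gstm1), with a median log2 fold change of 0.09. These shares, 17.6% and 29.4%, lie near the 22.4% and 22.1% of all tested genes. Gstp1, the pi-class enzyme, was 2.68-fold higher (95% interval 2.41 to 2.97), from an implied 2054 to 5499 normalized counts, per the authors' deposited table. Gsto1, an omega-class enzyme with thioltransferase activity, was 2.70-fold higher (2.32 to 3.14), from an implied 997 to 2694 normalized counts, per the same deposited values. On the other side, the theta-class gene Gstt1 was 5.60-fold lower (3.91 to 8.02), from an implied 180.0 to 32.1 normalized counts, per the authors' deposited table. The alpha-class gene Gsta4, whose enzyme conjugates the lipid peroxidation product 4-hydroxynonenal, was 3.11-fold lower (1.99 to 4.87) at a mean of 50.8 per the authors' deposited table. Microsomal Mgst3 (log2 fold change -0.88, standard error 0.18) and the mu-class genes Gstm2 (-0.65, 0.09) and Gstm1 (-0.38, 0.07) fell per the authors' deposited table, where Gstm5 of the same class stood at 0.37 (0.15). The rise of Gstm5 was lost with no filter and with the t distribution.

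The summed transcripts of the family were higher with Yoda1, and most of that rise lay in Gstp1. Per kilobase, the implied sum over the 22 transferases with a transcript length was 8239 normalized counts with DMSO and 12671 with Yoda1, and Gstp1 made up 30.6% and 53.3% of it. No error can be given for these sums. Gsta1, Gsta13, Gsta3, Gstm6, Gstp3 and Mgst1 had no adjusted p, with means from 0.152 to 1.40 per the authors' deposited table, and Gstk1, Gstm4, Gstm7, Gsto2 and Gstt2 had means from 2.50 to 7.45, where changes were not detectable. The remaining tested transferases Gstp2, Gstt3, Gstz1 and Mgst2 did not pass. Members of the alpha, mu, pi and theta classes are close in sequence and lie in clusters, so the authors' quantification may have divided reads between them, and single values within a class are uncertain to that extent.

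Genes grouped here as NADPH supply parted within the pentose phosphate pathway. There the dehydrogenases encoded by G6pdx and Pgd yield NADPH, while the enzymes encoded by Taldo1 and Tkt do not. Taldo1, which encodes transaldolase of the non-oxidative pentose phosphate branch, was 2.49-fold higher (95% interval 2.19 to 2.82), from an implied 1570 to 3908 normalized counts, per the authors' deposited table. Pgd, which encodes the second NADPH-producing dehydrogenase of the oxidative branch, was 1.53-fold higher (1.34 to 1.74) per the authors' deposited table. G6pdx, the first and rate-limiting dehydrogenase, did not pass (log2 fold change 0.14, standard error 0.09, 95% interval -0.03 to 0.32), nor did transketolase Tkt (0.09, 0.08), per the authors' deposited table. Both passed with equal summed counts. Me1, the cytosolic malic enzyme whose promoter window holds the same core as Prdx1, stood at 0.03 (standard error 0.07, 95% interval -0.10 to 0.17) per the authors' deposited table.

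Of the superoxide dismutase and catalase genes, Sod3 rose and Cat fell, while Sod1 and Sod2 did not pass the test. Sod3, the secreted superoxide dismutase that binds heparan sulfate in the matrix, was 2.39-fold higher (95% interval 2.13 to 2.68, DESeq2 adjusted p = 1.74e-48), from an implied 957 to 2288 normalized counts, per the authors' deposited table. Cytosolic Sod1 stood at 0.17 (standard error 0.09, DESeq2 adjusted p = 0.11) and mitochondrial Sod2 at 0.02 (0.08) on the log2 scale per the authors' deposited table, and Sod1 passed with equal summed counts. Cat, which encodes peroxisomal catalase, was 1.25-fold lower (1.12 to 1.40) per the authors' deposited table, a call lost with the t distribution.

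Gene overlap bears on a few of these values, since the strand setting of the quantification is not given in the sources used here. By RefSeq, 11 of 64 members with a gene record overlap another gene of the table. Nqo2 (mean 381) overlaps Serpinb6a (mean 6617, log2 fold change -0.14) and Prdx5 (mean 2749) overlaps Trmt112 (mean 1619, -0.15) per the authors' deposited table. The part of these overlaps in the results was not tested.

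The rest of the pathway was read from a list of 64 further genes, also chosen with earlier results of these data known. Of the list, 62 had a row and 59 an adjusted p. Of these 59, 23 rose (39.0%) and 12 fell (20.3%), beside 22.4% and 22.1% of all tested genes, with a median log2 fold change of 0.16. The share that fell was thus near that of all genes. The small MAF genes, whose products pair with NRF2, all rose: Maff was 3.96-fold higher (95% interval 3.24 to 4.83), Mafk 2.11-fold (1.78 to 2.50) and Mafg 1.49-fold higher (1.32 to 1.68) per the authors' deposited table. Cul3, the scaffold of the ligase that KEAP1 serves, was 1.33-fold lower (1.15 to 1.53) per the authors' deposited table, lost with the t distribution. Sqstm1, whose product p62 sequesters KEAP1, did not pass (log2 fold change 0.11, standard error 0.07) at a mean of 8850 per the authors' deposited table, but passed with equal summed counts at 0.21.

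Supply and export of glutathione also held rises. Slc7a11, the cystine carrier xCT that feeds glutathione synthesis, was 1.75-fold higher (95% interval 1.30 to 2.35) at a mean of 145 per the authors' deposited table, and its call was lost with the t distribution. Its partner chain Slc3a2 stood at -0.09 (standard error 0.08) on the log2 scale per the authors' deposited table. Of 9 tested genes of glutathione turnover and export, 5 rose (55.6%) and 1, Ggt7, fell (11.1%). Over all tested genes 22.4% rose and 22.1% fell. Abcc1, an exporter of glutathione and its conjugates, was 2.31-fold higher (2.04 to 2.63) per the authors' deposited table. The glutathione-degrading enzyme gene Chac1 (log2 fold change 0.76, standard error 0.12), Abcc4 (0.74, 0.11), Ggct (0.83, 0.31) and the mitochondrial glutathione carrier gene Slc25a39 (0.41, 0.11) rose per the authors' deposited table. The calls of Ggct, Slc25a39 and Ggt7 were lost with the t distribution.

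Among 14 other NRF2-linked genes 5 rose (35.7%), 1 fell (7.14%) and 8 did not pass the test. Of all tested genes 22.4% rose and 22.1% fell. The ferritin light chain gene Ftl1 was 1.74-fold higher (95% interval 1.55 to 1.95), while the heavy chain gene Fth1 stood at -0.13 (standard error 0.09, DESeq2 adjusted p = 0.267) on the log2 scale, per the authors' deposited table. Cbr3, a carbonyl reductase, was 1.77-fold higher (1.50 to 2.09), and the biliverdin reductase genes Blvrb and Blvra and the aldo-keto reductase gene Akr1b8 rose by log2 fold changes of 0.81, 0.32 and 0.27 per the authors' deposited table. The rises of Blvra and Akr1b8 were lost with the t distribution. Idh1, the cytosolic isocitrate dehydrogenase that also yields NADPH, was 2.23-fold lower (1.96 to 2.54) per the authors' deposited table.

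Thiol repair and selenoprotein genes moved in both directions. Of 15 glutaredoxin, methionine sulfoxide reductase, sestrin and thioredoxin-like genes, 3 rose (Glrx2, Txndc17 and Txnl1) and 6 fell (Sesn1, Txndc5, Sesn3, Glrx3, Nxn and Msrb3). These are 20.0% and 40.0%, beside 22.4% and 22.1% of all tested genes, so the share that rose was near that of all genes. With the t distribution all 3 rises and the falls of Glrx3 and Msrb3 were lost. The largest fall was that of Sesn1, a sestrin, which was 1.97-fold lower (95% interval 1.69 to 2.30) per the authors' deposited table. Of 8 genes for selenoprotein synthesis and selenoproteins, 3 rose, 2 fell and 3 did not pass the test. Sephs2, Trnau1ap and Eefsec rose (log2 fold changes 0.63, 0.57 and 0.27) per the authors' deposited table. Selenop and Selenow fell (-1.67 and -0.68) there. These falls did not extend to the selenoenzyme genes named above: Txnrd1 rose (1.46), and Gpx4 (0.22) and Gpx1 (-0.10) did not pass. The rises of Trnau1ap and Eefsec were lost with the t distribution. NADPH oxidases produce superoxide or hydrogen peroxide: Nox4 fell (-0.55, standard error 0.20) and its partner Cyba rose (0.75, 0.12), and Duox2 rose at a mean of only 14.1 (2.77, 0.65), per the authors' deposited table. The calls of Nox4 and Duox2 were lost with the t distribution, and that of Nox4 also with equal summed counts.

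**Figure D5:**
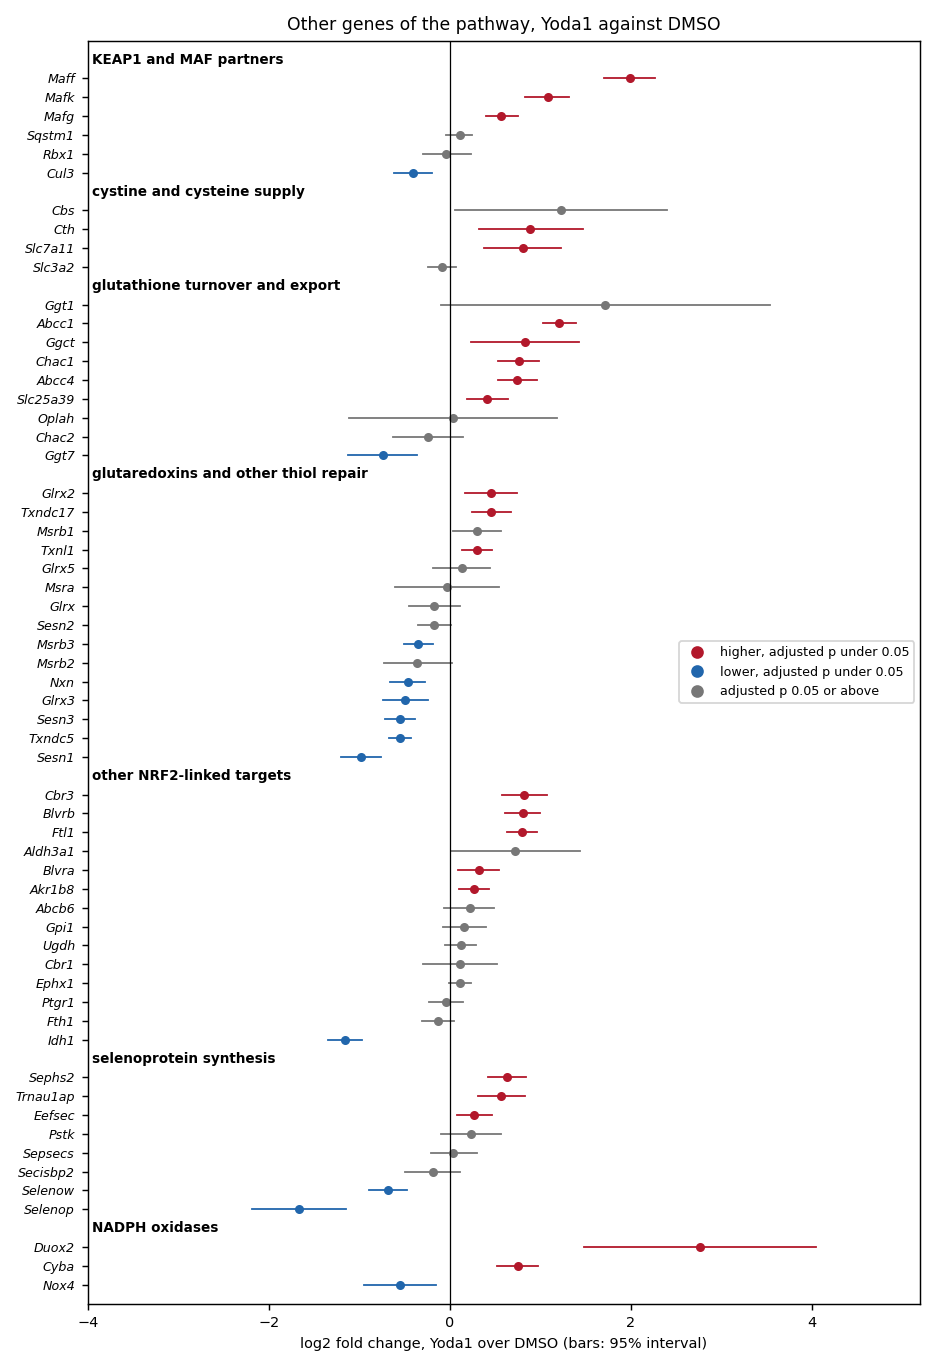
Log2 fold change, Yoda1 over DMSO, of the 59 tested genes of the pathway outside the member list, grouped by function; points are the authors' deposited values and bars their 95% intervals. Red marks rises, blue falls and grey genes that did not pass; Maff stands farthest to the right among genes whose mean reached 100, and Selenop and Idh1 farthest to the left of all.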

How the data were processed

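The sources name Salmon, DESeq2 and build GRCm39 without versions, per the submitters' processing notes. One table, the authors' own comparison, was used. Mean normalized counts are a signal averaged over both groups by the authors. Each log2 fold change and standard error was deposited by the authors. The Wald statistic is a score, deposited with a p-value and an adjusted p, per the file headers. Recomputing the p-value as the two-sided normal tail of this statistic gave the same numbers. Benjamini-Hochberg adjustment over 14653 rows likewise gave the same adjusted p. The authors' filter left the lowest tested mean at 1.92. The median standard error was 0.116 at means of 100 or more and 0.754 below, which sets the precision. The design formula is not given in the sources used here. The table has 21 repeated symbols, none of them a member, and their most abundant row was taken.

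Computed here, with Python 3.11.15, scipy 1.17.1 and pandas 2.3.3, were ratios with 95% intervals from the normal distribution, group means implied by the deposited mean and fold, values per kilobase (median basic protein-coding transcript, GENCODE M21, for 64 of 65 members), readjusted p-values under the alternatives, and the motif search. The p-value and adjustment functions, with the t distribution, the test against 0.5 and median centring, were tested on simulated data. The strand of the 5 printed stretches was checked against GENCODE transcripts of the same genes. The design foresaw the authors' comparison where no counts per library were held. Protein sequences were not used here. The members and lists were chosen with earlier results of these data known. Named in full were the 12 largest changes with a mean of 100 or more, members past an absolute log2 fold change of 1, all regulators and 10 fixed genes, and of the other pathway genes the 8 largest and 5 fixed ones. Genes named beside a small count were chosen after their values were seen. Of the 64 further pathway genes, Akr1b3 and Cybb had no row under these symbols.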

Additional observations from a re-analysis of the deposited data

How the results depend on the processing

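Member counts of 28 higher and 10 lower moved by less than 1.5 times with no filter (26 and 10), means of 10 or more (28 and 10), median centring (28 and 10) and equal summed counts (33 and 8). With the t distribution of 4 degrees of freedom they were 19 and 6, with an absolute log2 fold change above 0.5 they were 16 and 6, above 1 they were 8 and 3, and in a test against 0.5 they were 11 and 3. The other pathway genes, 23 higher and 12 lower, became 11 and 7 with the t distribution, 4 and 2 above 1 and 6 and 3 in the test against 0.5. Over all tested genes, 15.0% were higher and 14.6% lower with no filter, and 26.5% and 25.9% at means of 10 or more. These shares were 23.2% and 21.4% with median centring, 28.2% and 17.1% with equal summed counts, and 10.4% and 10.0% with the t distribution. Above 0.5 they were 13.8% and 13.3%, above 1 they were 4.92% and 5.22%, and against 0.5 they were 4.79% and 4.72%. Equal summed counts subtract -0.11 from every log2 fold change and so raise it. Of members' values that did not pass, Gpx1 turned to 0.00, Gstm7 to 0.08 and Prdx4 to 0.10 under it, and Prdx4 to 0.01 with median centring. Of the other pathway genes that did not pass, Slc3a2, Rbx1, Msra and Ptgr1 turned to 0.02, 0.07, 0.08 and 0.07 with equal summed counts. Under equal summed counts the members G6pdx, Gpx4, Sod1, Tkt and Txnip and the other pathway genes Sqstm1, Ephx1, Ugdh and Msrb1 also passed. Msrb1 passed at means of 10 or more and with median centring as well. Gsto1, Gstp1, Nqo1, Sod3, Taldo1, Txn1, Txnrd1 and Txnrd2 stayed higher, and Gpx7, Gsta4 and Gstt1 lower, past the threshold in all 8 alternatives. No paired analysis was possible because the table used holds no values per library, and for the same reason the fits without single replicates were not run. Depth per library and the spread between libraries could not be checked, and at means below 10 no member passed the test.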
